A study of Mus musculus with 2 samples.

Results

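The Schlafen genes of the mouse lie side by side on chromosome 11. The 7 listed members, Slfn1, Slfn2, Slfn3, Slfn4, Slfn5, Slfn8 and Slfn9, were found by gene symbol among the 27179 genes of the deposited count table, and all 7 were listed there. They were selected on their family name and place, with the difference of their counts between these 2 libraries known, so that difference is given below as a description. The transcripts came from ALL65, a primary T cell acute lymphoblastic leukaemia (T-ALL) of the genotype Vav-tTA;TRE-GFP-shIkaros. In both groups the cells carried this same pair of transgenes. The Vav promoter, active in blood cells, drives the tetracycline transactivator tTA, which in turn switches on a short hairpin RNA against Ikaros linked to green fluorescent protein (GFP). Doxycycline (Dox) stops tTA, so the hairpin is shut off and the cells' own Ikaros, a transcription factor of lymphocytes, returns. Spleen cells of leukaemic recipient mice were sorted as GFPhigh cells from untreated mice and as GFPmid cells from mice given Dox for 3 days, so the gate differed along with the treatment. All cells derive from 1 leukaemia. The sources used here do not state the age or strain of the mice.

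Schlafen proteins share an amino-terminal domain and occur in several sizes. Slfn1 and Slfn2 are short, Slfn3 and Slfn4 have an intermediate length, and Slfn5, Slfn8 and Slfn9 carry a long carboxy-terminal part related to helicases. Several members are induced by type I interferon, and Slfn2 is known as a gene that keeps resting T cells quiescent and alive, since mice with a defect in it lose T cells upon activation. The members are also known to change as thymocytes mature and as T cells are activated.

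Each group was deposited as 1 column, although the design text names 3 mice per group, with 7477988 counts untreated and 14457475 counts with Dox. The differences therefore have no replicate check, no test was run, and the bounds given are exact 95% intervals that cover counting error only. A count of 0 allows up to 0.395 CPM (counts scaled to a common library size) in the untreated library and up to 0.211 CPM in the Dox library. Ikzf1, which encodes Ikaros, stood at 262 CPM untreated and 1455 CPM with Dox. T lineage markers were abundant, with 8 of 9 measured and a summed level of 4341 and 4792 CPM, while Ptcra had 3 and 0 counts. Among these 8, 3 reached 1.5-fold upward with Dox and 0 downward. They were Cd8b1, Cd4 and Cd8a, at log2 ratios of Dox over untreated of 1.27, 0.83 and 0.80. Cd3g, Cd3d, Lck and Cd3e stood slightly lower with Dox, at -0.28, -0.25, -0.21 and -0.093, and Thy1 stood at 0.094. The part of a shift in T cell maturity in the values below was not tested. Of the defining markers of B cells, Ms4a1 and Pax5 were at 0 in both libraries, and Ncr1, Klrk1 and Klrd1 of NK cells were too. The stroma and endothelium list summed to 361 and 329 CPM, with Cdh5 and Kdr at 0 in both libraries. Within it, Pdgfrb stood at 35.3 and 10.5 CPM, Col1a2 at 165 and 112 CPM and Pecam1 at 159 and 205 CPM. Col1a1 stood at 1.97 and 1.83 CPM. The part of such cells in the values below was not tested. In bulk RNA, fewer cells of a type and less RNA per cell cannot be told apart.

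The 7 members did not move as a block. Slfn5, Slfn8 and Slfn1 stood higher with Dox, Slfn2 stood higher by a smaller amount, Slfn3 was level, and Slfn9 stood far lower. Slfn4 was hardly transcribed. A minimum of 5 CPM in whichever library was higher was passed by 6 members, all but Slfn4. Of these 6, Slfn5 and Slfn8 reached 2-fold or more upward with Dox and Slfn9 reached it downward. Over all 10113 genes past that minimum, 4.45% reached 2-fold, 2.21% upward and 2.24% downward. At 1.5-fold, 3 members passed upward and 1 downward, beside 6.28% and 6.18% of the 10113 genes, or 12.5% in all. The members nearest to the 2-fold line were Slfn1 below it, at a log2 ratio of 0.97, and Slfn8 above it, at 1.35. Since the members were chosen with this contrast known, nothing is read from their count. Log2 ratios are of Dox over untreated, with a prior count of 2 added to damp low counts. The median log2 ratio was 0.74 over these 6 members and 0.97 over all 7, beside 0.012 over all 10113 genes.

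**Figure D1:**
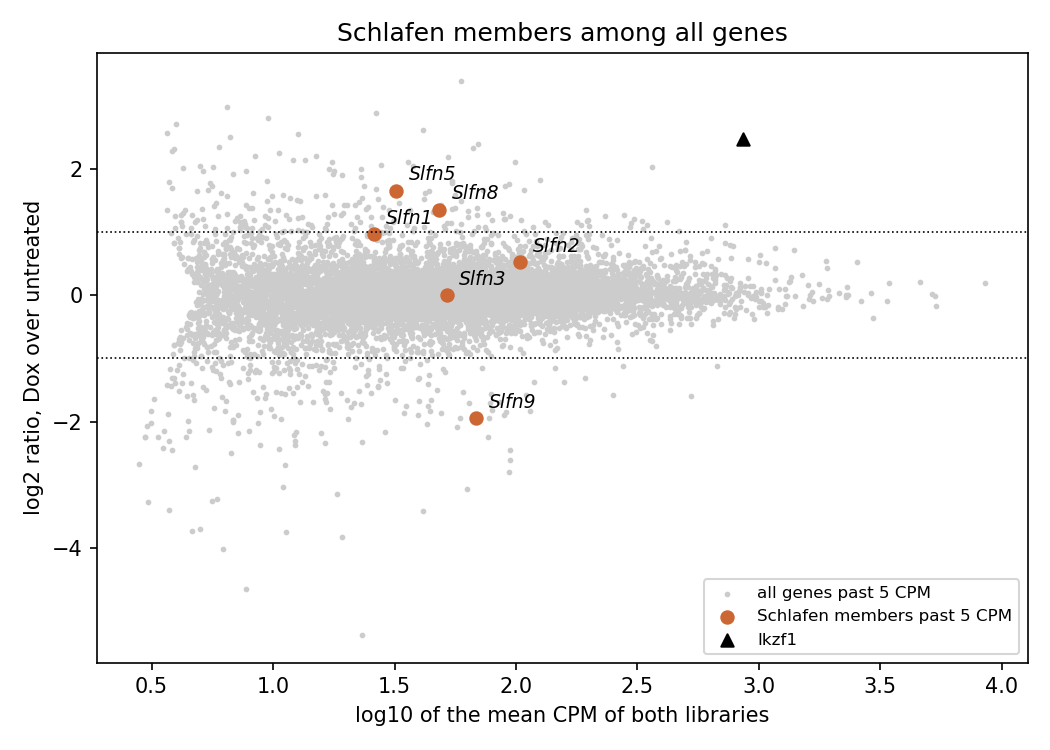
Log2 ratio of Dox over untreated (vertical axis) against the log10 of the mean CPM of both libraries (horizontal axis) for the 10113 genes past the minimum of 5 CPM. Orange points are the 6 Schlafen members past that minimum, the black triangle is Ikzf1, and dotted lines mark 2-fold. Slfn5 at 1.65 and Slfn8 at 1.35 lie above the upper line, and Slfn9 at -1.95 lies below the lower line.

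Among the long members, Slfn5 had the largest ratio. Slfn5 encodes a nuclear protein that has been linked to the control of interferon-induced genes. It had 117 counts untreated and 695 with Dox, which is 15.4 and 48.9 CPM. The log2 ratio was 1.65 (1.38 to 1.96), or 3.15-fold higher with Dox, and 99.4% of the genes past 5 CPM had a lower ratio. The gene (Entrez Gene 327978) spans chromosome 11 from 82951349 to 82964850 on the plus strand in GRCm38.p6, the assembly behind mm10. An antisense gene, Slfn5os, overlaps it and had 0 and 1 counts. The sources used here do not state whether the counting used the strand.

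Slfn8 and Slfn9 are neighbouring long genes whose values went in opposite directions. Slfn8 (Entrez Gene 276950, 83002125 to 83020810, minus strand) had 206 and 989 counts, that is 27.1 CPM untreated and 69.5 CPM with Dox. Its log2 ratio was 1.35 (1.14 to 1.58), or 2.55-fold higher. Slfn9 (Entrez Gene 237886, 82974316 to 82991830, minus strand) had 827 and 400 counts, that is 109 CPM untreated and 28.1 CPM with Dox. The log2 ratio of Slfn9 was -1.95 (-2.13 to -1.78), or 3.85-fold lower, and 0.564% of the genes past 5 CPM had a lower one. Slfn9 counts outnumbered Slfn8 counts 4.01 to 1 without Dox, and Slfn8 counts outnumbered Slfn9 counts 2.47 to 1 with Dox. Slfn8 made up 19.9% (17.5 to 22.5, exact binomial interval) of the counts of the pair in the untreated library and 71.2% (68.7 to 73.6) in the Dox library. This share is taken within each library, so the scaling between libraries does not enter it.

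The 2 genes are close copies, which bears on how their reads could be told apart. In GENCODE M21 both have a coding length of 2730 bases without the stop codon, and 2531 of these bases (92.7%) were identical in a local alignment. Of the distinct 50-base windows of the Slfn8 transcripts, 389 also occurred in Slfn9 and 423 in the pseudogene Slfn10-ps, and 14.6% occurred in a transcript of some other gene. For 100-base windows that share was 3.38%. The corresponding shares for Slfn9 were 11.9% and 3.71%. Most windows were therefore not shared as exact sequences, a measure that counts any mismatch as a difference. The sources used here do not state how reads that match both genes were counted, and the part of such reads in the values was not tested. Summed, Slfn8 and Slfn9 stood at 136 CPM untreated and 97.6 CPM with Dox, which gives a log2 ratio of -0.48 (-0.59 to -0.36). Slfn10-ps, the transcribed pseudogene between Slfn8 and Slfn2, had 82 and 246 counts. At 10.8 CPM untreated and 17.3 CPM with Dox, its log2 ratio was 0.67 (0.31 to 1.06).

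The promoters of Slfn8 and Slfn9 are shown because they align over most of their length while the transcripts differed in direction. The sequences are those of RefSeq (GRCm38.p6), from 250 bases before to 50 bases after the start site, and capitals mark the core of the interferon-stimulated response element on either strand, searched as GAAA, any 2 bases and GAAA again. RefSeq lists a second start for Slfn8, and the one at the outer end of the gene was used. The listed start of Slfn5 lies inside its gene span. The promoter of Slfn5, the member with the highest ratio past 5 CPM, is given beside them because it also holds these letters.
Slfn9 (chr11:82991781-82992080, minus strand): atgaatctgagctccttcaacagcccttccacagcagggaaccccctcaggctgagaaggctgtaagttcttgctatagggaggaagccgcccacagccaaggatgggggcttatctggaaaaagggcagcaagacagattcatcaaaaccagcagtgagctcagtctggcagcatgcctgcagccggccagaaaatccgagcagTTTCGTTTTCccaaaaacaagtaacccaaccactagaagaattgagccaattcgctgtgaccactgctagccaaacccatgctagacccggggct
Slfn8 (chr11:83020761-83021060, minus strand): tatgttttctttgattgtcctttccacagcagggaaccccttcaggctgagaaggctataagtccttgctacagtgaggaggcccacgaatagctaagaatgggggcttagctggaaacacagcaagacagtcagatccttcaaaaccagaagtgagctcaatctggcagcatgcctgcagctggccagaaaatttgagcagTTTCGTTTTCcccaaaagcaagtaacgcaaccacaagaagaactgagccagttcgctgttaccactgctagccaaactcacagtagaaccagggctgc
Slfn5 (chr11:82951852-82952151, plus strand): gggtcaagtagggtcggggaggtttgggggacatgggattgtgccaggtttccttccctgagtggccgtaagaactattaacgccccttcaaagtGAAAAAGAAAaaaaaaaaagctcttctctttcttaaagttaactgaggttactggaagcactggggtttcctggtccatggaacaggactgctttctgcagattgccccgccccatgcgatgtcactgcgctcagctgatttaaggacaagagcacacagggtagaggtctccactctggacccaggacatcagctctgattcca
In a local alignment, 238 of 277 aligned bases (85.9%, gaps left out) were identical between the promoters of Slfn8 and Slfn9. These identical bases make up 79.3% of the 300 bases. No other pair among the 7 promoters aligned over more than 48 bases. The core began at position -45 from the start site in Slfn9, at -48 in Slfn8 and at -155 in Slfn5. It was found in these 3 of 7 Schlafen promoters and in 3.44% of 32851 promoters of the same length. The letters TGGGAA, a core that Ikaros is known to bind, were searched on both strands too. They occurred in Slfn9 and Slfn2, and in 25.6% of all promoters. In Slfn9 they overlapped the interferon element core, at position -38. This exact overlap was present in 0.137% of all promoters and in none of the other 6 Schlafen promoters searched. The ratios of the members were known when the overlap was looked at, so nothing is read from this share. At the same place of the element, Slfn9 reads TTCCCA, the reverse complement of TGGGAA, and Slfn8 reads TTCCCC, which differs in the last base only. The overlap therefore sets Slfn9 apart from Slfn8 only under this exact search. The letters TTCNNNGAA, to which STAT proteins can bind, occurred in 0 of 7 Schlafen promoters and in 8.3% of all promoters. These matches describe the letters of the windows and do not show binding.

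The short members both stood higher with Dox. Slfn2 (Entrez Gene 20556, 83065112 to 83070678, plus strand) had 650 and 1746 counts, which is 85.5 CPM untreated and 123 CPM with Dox. Its log2 ratio was 0.52 (0.39 to 0.65), or 1.43-fold higher, and it stayed under 2-fold. An antisense gene, Gm20234, overlaps Slfn2 in GENCODE M21. With both strands searched, Slfn4 was the only other gene whose transcripts shared a 50-base window with Slfn2, at 69 windows. Slfn1 (Entrez Gene 20555, 83116820 to 83122670, plus strand), a gene reported to slow the growth of T cells when expressed in them, had 133 and 490 counts, or 17.5 and 34.4 CPM. Its log2 ratio was 0.97 (0.70 to 1.26), or 1.96-fold, just under the 2-fold line that its interval spans. With the Dox counts thinned to the untreated total, the Slfn1 ratio was 1.04. Both short members summed to 103 CPM untreated and 157 CPM with Dox, which gives a log2 ratio of 0.61 (0.49 to 0.73).

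The intermediate members differed in level, and Slfn4 had too few counts to give a direction. Slfn3 (Entrez Gene 20557, 83191330 to 83215154, plus strand) had 395 and 738 counts, which is 52.0 CPM untreated and 51.9 CPM with Dox. Its log2 ratio was -0.0027 (-0.18 to 0.18), so the values of the libraries lay within counting error of each other. Slfn4 (Entrez Gene 20558, 83175172 to 83190216, plus strand), best known from macrophages and other myeloid cells, had 1 count untreated and 9 with Dox. At 0.132 and 0.633 CPM its log2 ratio of 1.37 (-0.59 to 7.72) could not be told from 0 at this depth. Of 9 macrophage and granulocyte markers, 3 passed 1 CPM on average. Mpo, S100a8 and Ly6g were at 0 in both libraries, and the summed level of the list was 19.9 CPM untreated and 23.5 CPM with Dox. The 3 detected markers went different ways, with Lyz2 at 55 and 24 counts (-1.99), Itgam at 64 and 209 (0.79) and Cd68 at 25 and 88 (0.88). The part of such cells in the Slfn4 counts was not tested. The coding sequences of Slfn3 and Slfn4 were identical at 94.6% of 1650 aligned bases, and 252 distinct 50-base windows occurred in transcripts of both. The part of reads shared between them was not tested.

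The promoters of the short and intermediate members hold a common stretch that the long members lack. The letters ACTTCCT, to which ETS factors can bind, were found on either strand in 4 of 7 Schlafen promoters and in 9.35% of all promoters. The longer run ACTTCCTGG, noticed on reading the sequences, stood in the same 4 promoters, at positions from -74 to -42, and in 0.843% of all promoters. Since this run was picked from these same promoters, its presence in them was known beforehand, and nothing is read from that share. The windows below show it, with ACTTCCT on either strand in capitals.
Slfn2 (chr11:83065037-83065087, plus strand): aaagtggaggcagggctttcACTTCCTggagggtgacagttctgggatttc
Slfn1 (chr11:83116726-83116776, plus strand): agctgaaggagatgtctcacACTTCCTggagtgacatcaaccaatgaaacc
Slfn4 (chr11:83175093-83175143, plus strand): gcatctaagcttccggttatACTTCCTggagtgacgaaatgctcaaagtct
Slfn3 (chr11:83191268-83191318, plus strand): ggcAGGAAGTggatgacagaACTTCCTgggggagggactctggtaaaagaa
The 4 genes with this stretch differed in level and in ratio, from Slfn4 near the detection limit to Slfn2, the member with the most CPM per kilobase in both libraries. Their coding sequences are related as well, with Slfn1 and Slfn2 identical at 70.6% of 972 aligned bases and Slfn2 and Slfn3 at 74.1% of 1051.

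Compared per length, the order of the members changed between the libraries. The CPM per kilobase of the authors' gene length was highest for Slfn2 in both libraries, at 51.4 untreated and 73.8 with Dox. Without Dox, Slfn3 at 28.6 and Slfn9 at 28.2 CPM per kilobase followed, and their counting intervals overlapped. Slfn1 at 9.42, Slfn8 at 6.76, Slfn5 at 2.57 and Slfn4 at 0.0332 CPM per kilobase came next, each apart from its neighbour in the order beyond its counting interval. With Dox, Slfn3 stood at 28.6, Slfn1 at 18.5, Slfn8 at 17.3, Slfn5 at 8.16, Slfn9 at 7.29 and Slfn4 at 0.160 CPM per kilobase. There the intervals of Slfn1 and Slfn8 overlapped, as did those of Slfn5 and Slfn9. Slfn9 thus moved from order 3 to order 6 of the 7 members.

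**Figure D2:**
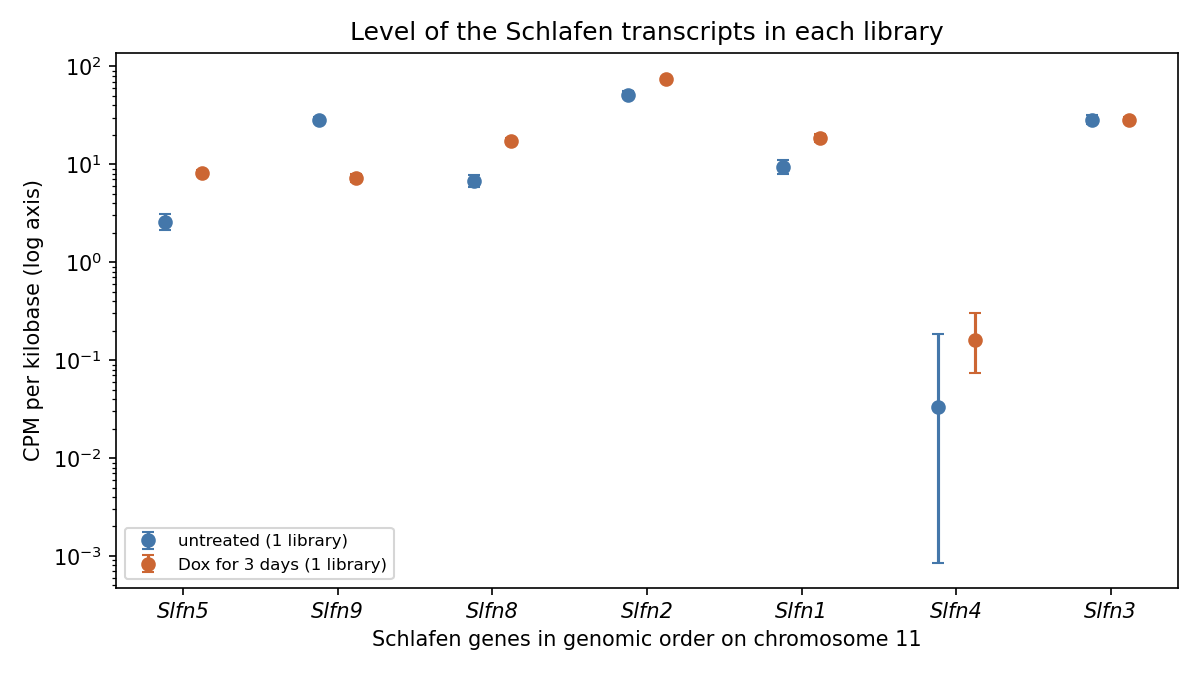
Level of each Schlafen transcript in CPM per kilobase (log axis) in genomic order, blue for the untreated library and orange for the Dox library, with exact 95% Poisson intervals of the counts as bars. Slfn9 is the member whose Dox point lies well below its untreated point, at 7.29 against 28.2, and the points of Slfn3 coincide at 28.6.

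The make-up of the Schlafen transcripts shifted more than their total. The 7 members summed to 2329 counts untreated and 5067 with Dox, or 306 CPM and 356 CPM. Their summed log2 ratio was 0.22 (0.15 to 0.29). Slfn9 held 35.5% (33.6 to 37.5) of these counts without Dox and 7.89% (7.17 to 8.67) with Dox. Slfn8 went from 8.84% (7.72 to 10.1) to 19.5% (18.4 to 20.6), and Slfn5 from 5.02% (4.17 to 5.99) to 13.7% (12.8 to 14.7). Slfn2 held 27.9% (26.1 to 29.8) and 34.5% (33.1 to 35.8), and Slfn3 17.0% (15.5 to 18.5) and 14.6% (13.6 to 15.6). The long members together had a log2 ratio of -0.047 (-0.15 to 0.058), in which the lower Slfn9 offset the higher Slfn5 and Slfn8.

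**Figure D3:**
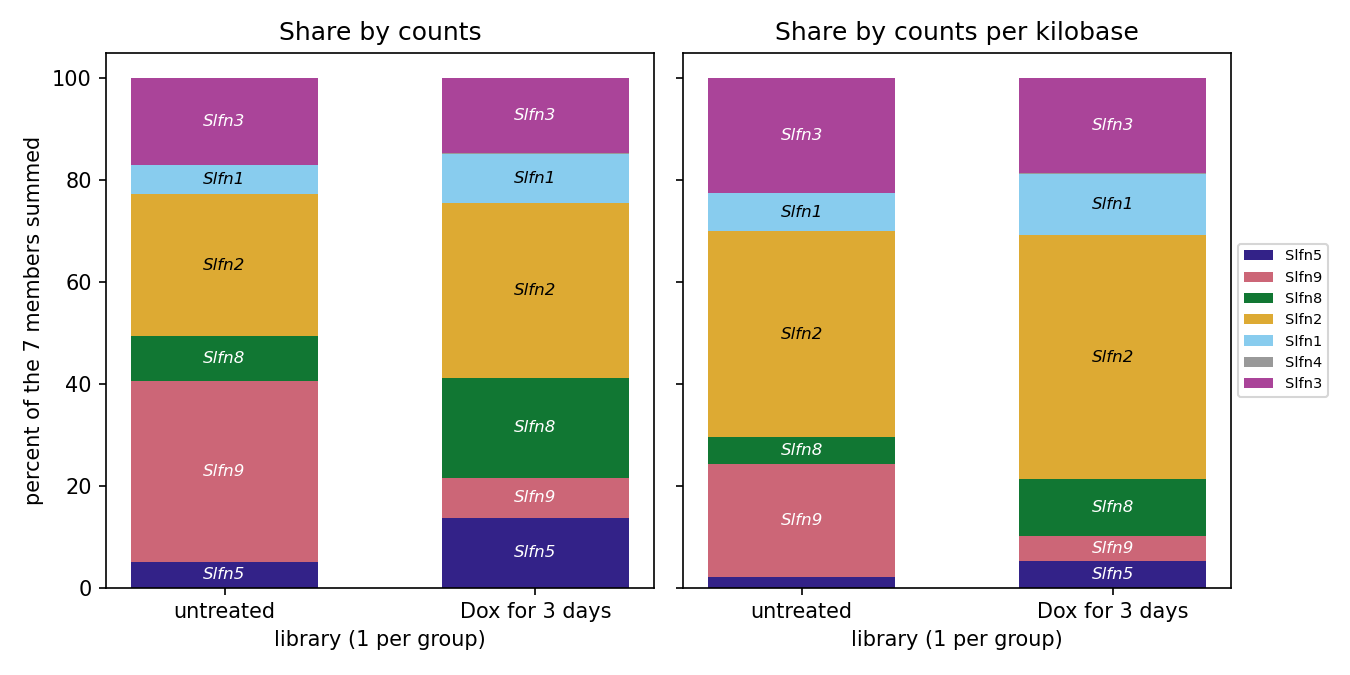
Share of each member in the summed Schlafen transcripts of each library, in percent, by counts on the left and by counts per kilobase on the right. The Slfn9 segment shrinks from 35.5% to 7.89% of the counts, while Slfn2 is the largest segment with Dox, at 34.5%.

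The genes around the cluster past 5 CPM, like most genes past that minimum, stood at similar levels in both libraries. The members span 264 kb, from 82951349 to 83215154 on chromosome 11. Within 500 kb on either side, 10 genes other than Schlafen genes passed the minimum of 5 CPM, and all 10 lay within 1.5-fold. Over all 10113 genes past that minimum, 12.5% reached 1.5-fold either way, so nothing is read from this count. The 10 genes had a median log2 ratio of -0.054, with the lowest at -0.24 for Zfp830. On the Slfn5 side, the ribosome biogenesis gene Nle1 had a ratio of -0.23 (-0.41 to -0.047), the DNA repair gene Rad51d one of 0.078 (-0.14 to 0.30) and the ubiquitin ligase gene Rffl one of 0.095 (-0.15 to 0.34). The nearest gene on that side, the myosin chaperone gene Unc45b, had 3 and 25 counts, or 0.395 and 1.76 CPM. Its ratio was 1.75 (0.44 to 4.53), while Fndc8 had 5 and 11 counts. On the Slfn3 side, AI662270 had 274 CPM untreated and 239 CPM with Dox and a ratio of -0.20 (-0.28 to -0.12). AA465934 had 42 and 67 counts and AI450353 had 26 and 45, and their ratios of -0.22 (-0.81 to 0.36) and -0.11 (-0.84 to 0.64) spanned 0. Snord7 was at 0 in both libraries.

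**Figure D4:**
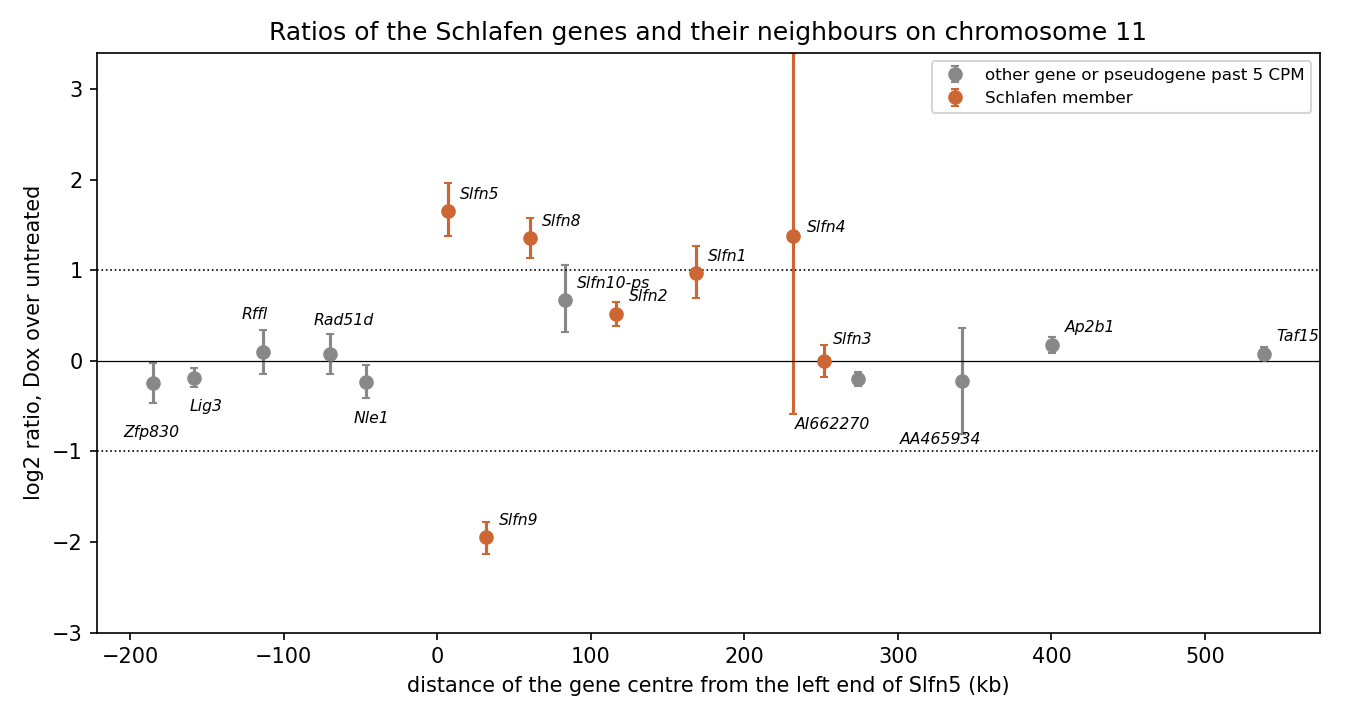
Log2 ratio of Dox over untreated for the Schlafen members (orange) and for other genes or pseudogenes of the region past 5 CPM that are reported here (grey), against the distance of each gene's centre from the left end of Slfn5 in kb. Bars are exact 95% counting intervals, and that of Slfn4 runs past the top of the axis to 7.72; dotted lines mark 2-fold. Slfn9 at -1.95 lies between Slfn5 and Slfn8, which are both above 1.

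Genes of the interferon signalling chain, through which Schlafen genes are induced, stood higher in part. The gene lists of this and the following paragraphs were chosen with earlier results of these data known, so their counts are given as descriptions. A list gene counted as measured where the mean of both libraries reached 1 CPM. All 13 listed members were measured, 5 reached 1.5-fold upward with Dox and 0 downward, and their median log2 ratio was 0.54. Among the 11498 genes past the same minimum, 7.54% reached 1.5-fold upward and 8% downward, and the median was 0.0080. The largest ratios were those of Irf9 at 0.95 (0.79 to 1.11), which encodes the DNA-binding part of the complex that type I interferon activates, Jak2 at 0.86 (0.75 to 0.98), Jak1 at 0.67 (0.61 to 0.72) and the receptor gene Ifnar1 at 0.63 (0.51 to 0.75). With total counts in place of the trimmed mean scaling, 3 members reached 1.5-fold. Of 6 measured interferon regulatory factors, Irf7 passed 1.5-fold upward at 1.39 (1.12 to 1.70), and Irf4 passed it downward at -0.88 (-1.08 to -0.69). Irf1 at 0.56 (0.43 to 0.68) and Irf2 at 0.45 (0.27 to 0.63) lay between them.

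The interferon-induced genes, like the Schlafen members, held both directions. Of 22 measured members of 26 listed, 11 reached 1.5-fold upward and 5 downward, beside 7.54% and 8% of all genes past the same minimum, and the median was 0.61. Ifit3 had 2 and 27 counts and a log2 ratio of 2.22 (0.86 to 5.97), Ifi27l2a one of 1.99 (1.60 to 2.47), the RNA sensor gene Ddx58 one of 1.39 (1.19 to 1.60) and the nucleic acid sensor gene Zbp1 one of 1.35 (1.11 to 1.62). The 5 lower members were Bst2, Oas2, Eif2ak2, Ifih1 and Oasl2, between -0.87 and -0.64, and these names were taken after their values were seen. None of them reached the ratio of Slfn9.

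Listed genes of T cell quiescence, the state in which Slfn2 has a known part, mostly stood higher with Dox. Of 17 measured members of 18 listed, 9 reached 1.5-fold upward and 0 downward, and the median was 0.68. The shares over the 11498 genes were 7.54% upward and 8% downward, with a median of 0.0080. Since this list was chosen with earlier results of these data known, nothing is read from its counts. S1pr1, a receptor for exit from lymphoid organs, had a ratio of 2.19 (1.95 to 2.46), the antiproliferative gene Tob1 one of 1.88 (1.55 to 2.27), and the transcription factor genes Klf2 and Foxo1 ratios of 1.76 (1.59 to 1.94) and 1.19 (1.09 to 1.30). The ratio of Slfn2 itself, 0.52, was below the median of this list.

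In the lists tied to proposed functions of Schlafen proteins, the counts past 1.5-fold are to be read beside the 7.54% upward and 8% downward of all genes, and nothing is read from counts this small. Of 13 measured genes of tRNA cleavage and oxidative stress, against which Slfn2 has been placed as a protector of tRNA, 0 lay at least 1.5-fold apart, and the median was -0.18. The largest ratio was that of the tRNA methyltransferase gene Nsun2 at -0.38 (-0.44 to -0.32), followed by Sod2 at -0.24, Sod1 at -0.21 and Trdmt1 at -0.21. Ang, which encodes the tRNA-cleaving ribonuclease angiogenin, had 2 and 1 counts. Of 8 D-type cyclins and partners, 1 was at least 1.5-fold apart, the kinase gene Cdk6 at -1.56 (-1.72 to -1.41). Ccnd1, the cyclin gene that has been proposed as a target of Slfn1, stood at 374 CPM untreated and 250 CPM with Dox and had a ratio of -0.58 (-0.66 to -0.51), while Ccnd2 stood at 0.55 and Rb1 at 0.52. Of 8 translation and replication stress factors, 1 was at least 1.5-fold apart, the kinase gene Eif2ak4 at -0.86 (-1.09 to -0.63), and Atr stood at -0.42, Rpa1 at 0.27 and Chek1 at -0.16.

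**Figure D5:**
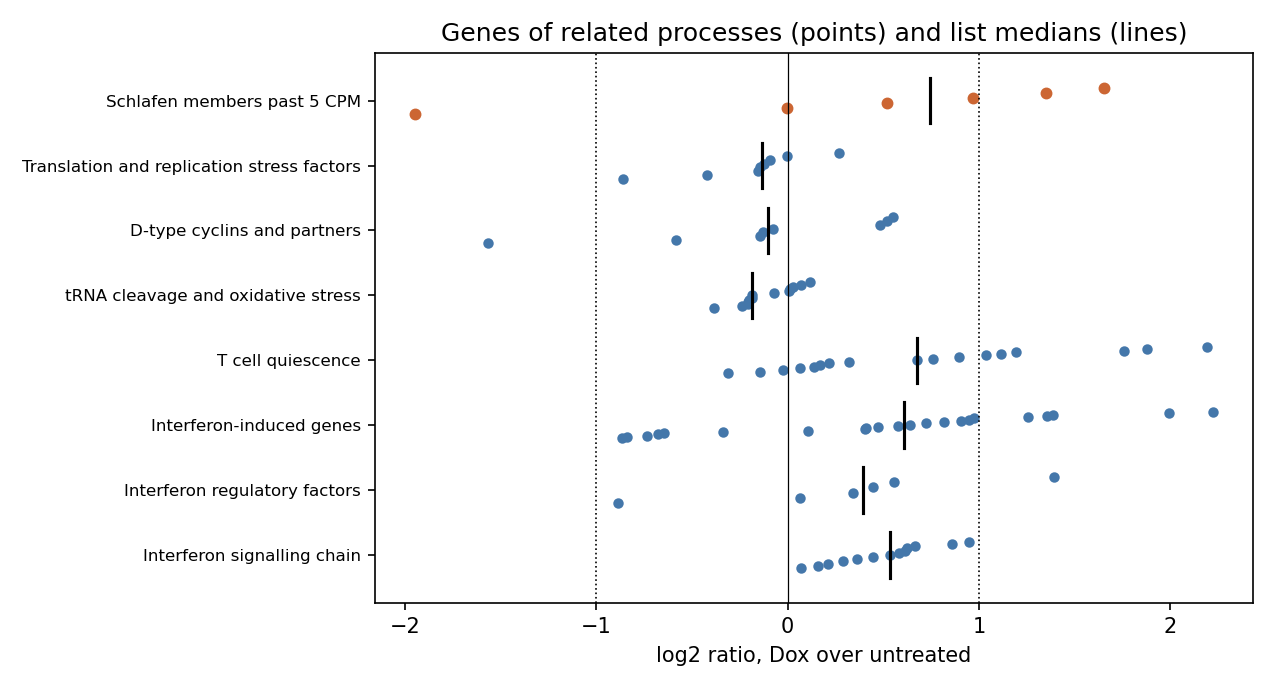
Log2 ratio of Dox over untreated for each measured gene of the lists (blue points) and for the 6 Schlafen members past 5 CPM (orange points), with the list median as a black line and 2-fold as dotted lines. The quiescence list has a median of 0.68, and the Schlafen members run from -1.95 to 1.65.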

How the data were processed

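The authors' deposited tables hold raw counts of reads for each gene and the gene length in bases. CASAVA 1.8.2, featureCounts and build mm10 come from the submitters' processing notes. The sources used here do not state the aligner, annotation, strand setting, treatment of shared reads, or how the 3 mice and 2 sequencing runs of each RNA were merged.

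RefSeq (GRCm38.p6) named 25275 of the 27179 genes. Scaling used edgeR 4.0.16 in R 4.3.3, by its trimmed mean of M values, with factors of 1.02 untreated and 0.984 with Dox. Folds are log2 ratios on the linear scale and so include the prior count. Ratio intervals are exact (Clopper-Pearson) and leave the prior count out. Their script was tested on simulated data. Promoters came from RefSeq and transcripts from GENCODE M21, aligned with Biopython 1.88.

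Named genes are the members, other Slfn genes, the 5 nearest genes on each side, Ikzf1, up to 4 genes of the largest absolute ratio in each of 7 lists, and the 3 genes nearest to the member with the highest mean CPM. Others, such as Ang and Zfp830, were named after their values were seen. The members and lists were chosen with earlier results of these data known. One neighbouring gene is not reported here. The alternatives covered scaling (DESeq2 1.42.0 size factors among them), prior counts, CPM minimums, the interval bound, thinned Dox counts, shares per kilobase and other sums.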

Additional observations from a re-analysis of the deposited data

How the results depend on the processing

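The ratios of all 7 members stayed within their counting intervals under the alternative scalings (DESeq2 size factors and total counts), under prior counts of 0.5 or 5, and with thinned Dox counts. Slfn5 ranged from 1.61 to 1.71, Slfn8 from 1.31 to 1.36 and Slfn9 from -1.99 to -1.83. Slfn4, with few counts, ranged from 0.89 to 1.94. The number of members at least 2-fold higher was 2, or 3 with thinned Dox counts, where Slfn1 passed, and 3 with no CPM minimum, where Slfn4 entered. Slfn9 alone was at least 2-fold lower under each of these settings.

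Over all genes, those at least 2-fold higher and lower numbered 407 and 440 with a minimum of 1 CPM, 129 and 104 with 20 CPM, 784 and 744 with none, and 115 and 141 with the interval bound past 2-fold. Per kilobase, the untreated shares were 2.02% for Slfn5, 22.2% for Slfn9, 5.32% for Slfn8, 40.5% for Slfn2, 7.42% for Slfn1 and 22.5% for Slfn3. With Dox they were 5.30%, 4.74%, 11.3%, 48.0%, 12.1% and 18.6% in the same order. The summed ratio without Slfn2 was 0.079, its interval (-0.0056 to 0.17) spanning 0. With Slfn10-ps added, an alternative chosen after seeing the data, the summed ratio of Slfn8 and Slfn9 was -0.35. Members at least 1.5-fold apart numbered 3 in the interferon signalling chain with total counts, 2 in the D-type cyclin list with DESeq2 size factors and 2 with total counts, and 1 in the tRNA list with no CPM minimum. The cause of these shifts was not tested, apart from the genes entering with a lower minimum. The untreated library, at 7477988 counts, limits Slfn4 most. No paired analysis was possible because each group has 1 library.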

Other observations

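Slfn14, Slfn5os and Slfnl1 were at or near the detection limit, unlike the pseudogene Slfn10-ps. Slfn14, a long member beyond Slfn3 whose product is known from red cell and platelet precursors, had 0 counts untreated and 1 with Dox. The related gene Slfnl1, on chromosome 4, had 2 and 0 counts. Of 6 erythroid and platelet markers, 1 passed 1 CPM on average, Hbb-bs at 1.18 and 1.62 CPM.

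The genes nearest to Slfn2, the member with the highest mean CPM, in level and ratio together were Cyth1, which encodes an exchange factor of ARF GTPases, the lymphocyte surface receptor gene Ly9 and the retinoblastoma gene Rb1. Cyth1 went from 85.0 to 122 CPM (log2 ratio 0.52), Ly9 from 84.2 to 123 CPM (0.55) and Rb1 from 88.4 to 127 CPM (0.52). Distance was taken over the log2 ratio and the log2 mean CPM, so it rests on 2 libraries.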
